A study of Mus musculus with 12 samples.

Results

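The cell cycle and DNA replication genes examined here are 43 genes of S phase and mitosis in mouse skin, chosen by symbol from a list of proliferation genes. The rule goes by symbol and no measured value, but the genes were chosen with earlier results of these data known. All 43 were found, each once, among the 23282 gene entries of the count files, and all 43 had enough counts to be among the 14163 genes tested. For the account below they were placed by their known role into 7 groups. These were mitotic entry (7 genes), the kinetochore, checkpoint and anaphase (10), the spindle and cytokinesis (7), chromosome structure (3), the replication fork (8), nucleotide supply (4) and G1/S control (4).

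RNA from skin was sequenced in 5 mice with atopic dermatitis (AD) and in 7 mice with AD on a high-fat diet (HF + AD, labelled AD+OB). All were wild-type C57BL/6 males (C57BL/6J in the methods, C57BL/6N in a drawing of the study's timeline), 5 weeks old at the start. Lesions were induced by the same treatment in both groups, 0.5% dinitrochlorobenzene (DNCB), a contact sensitizer, painted 3 times a week for 6 weeks. The lesions were not equally severe, as the paper reports greater thickening of the skin under the high-fat diet. The part of this difference in the values below was not tested. The HF + AD mice ate a diet with 60% of its calories from fat, beginning 4 weeks before DNCB, for 10 weeks in all, whereas the AD mice ate a standard diet. Untreated skin was not analysed here, so each value below is a difference between treated skin of mice on the high-fat diet and treated skin of mice on the standard diet, and no value says how far either lies from healthy skin.

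Cells of the basal epidermis and of the hair follicle matrix are the main dividing cells of skin. In G1 the D and E cyclins and the E2F factors switch on genes for DNA synthesis. In S phase the MCM helicase opens the DNA, PCNA holds the polymerases on it and ribonucleotide reductase makes the deoxynucleotides. In G2 and mitosis CDK1 with the A and B cyclins, the Aurora and Polo kinases, the kinetochore and the spindle take over, and the anaphase-promoting complex with CDC20 ends mitosis by destroying cyclin B and securin. Many genes of the last step are known to share the promoter elements CCAAT and CHR (cell cycle genes homology region), and many genes of S phase share E2F sites.

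The libraries held 9746937 to 11688979 counts in the AD group and 10726845 to 13462434 in the HF + AD group, and the 43 genes took 0.347 to 0.467% and 0.320 to 0.413% of them. The lowest count of any of the 43 genes in any mouse was 8, for Ccne1 in AD mouse 1. The AD libraries had fewer genes with a count (13100 to 15063, against 15522 to 16677) and more reads per original RNA molecule, as estimated from the zeros of moderately expressed genes (12.01 to 32.2, against 3.86 to 7.29), and neither range overlapped between the groups. The part of these library differences in the results below was not tested, beyond the alternatives given with them. The skin label was borne out by keratins, with Krt5 of the basal epidermis at a mean of 2860 CPM (counts scaled to equal library totals with TMM factors) in the AD group and Krt6a of activated epidermis at 8054 CPM.

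Of the 43 genes, 9 passed edgeR's quasi-likelihood test at a Benjamini-Hochberg adjusted p under 0.05, where 9.2% of all genes tested did. The share among the 43 was 20.9%. Of the 9, 3 were higher in the HF + AD group (Cdc20, Prc1 and Mcm7; background 4.43%) and 6 were lower (Rrm2, Ccnb1, Top2a, Stmn1, Mcm3 and Birc5; background 4.77%). Among the 9812 genes within the range of mean CPM of the 43, 11.7% passed (5.5% higher and 6.23% lower). At an unadjusted p under 0.05 there were 5 higher and 10 lower of the 43 genes, 34.9% of them, against 25.1% of all genes tested. The log2 fold changes (HF + AD against AD) were above 0 for 20 genes and below 0 for 23 (above 0 for 51.7% of all genes tested), with a median of -0.07, and the median of all genes tested was 0.023. The 34 genes that did not pass had log2 fold changes from -0.58 to 0.62. With library totals in place of TMM scaling, 59.1% of all genes that passed were higher in the HF + AD group, against 48.1% with TMM, and 5 of the 43 genes passed, 3 higher and 2 lower. The 4 lower genes that did not pass with library totals were Ccnb1, Stmn1, Mcm3 and Birc5 (adjusted p = 0.05003 to 0.0789 from edgeR). Since whole skin was sequenced, fewer dividing cells and less RNA per dividing cell cannot be told apart in any of these values.

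**Figure D1:**
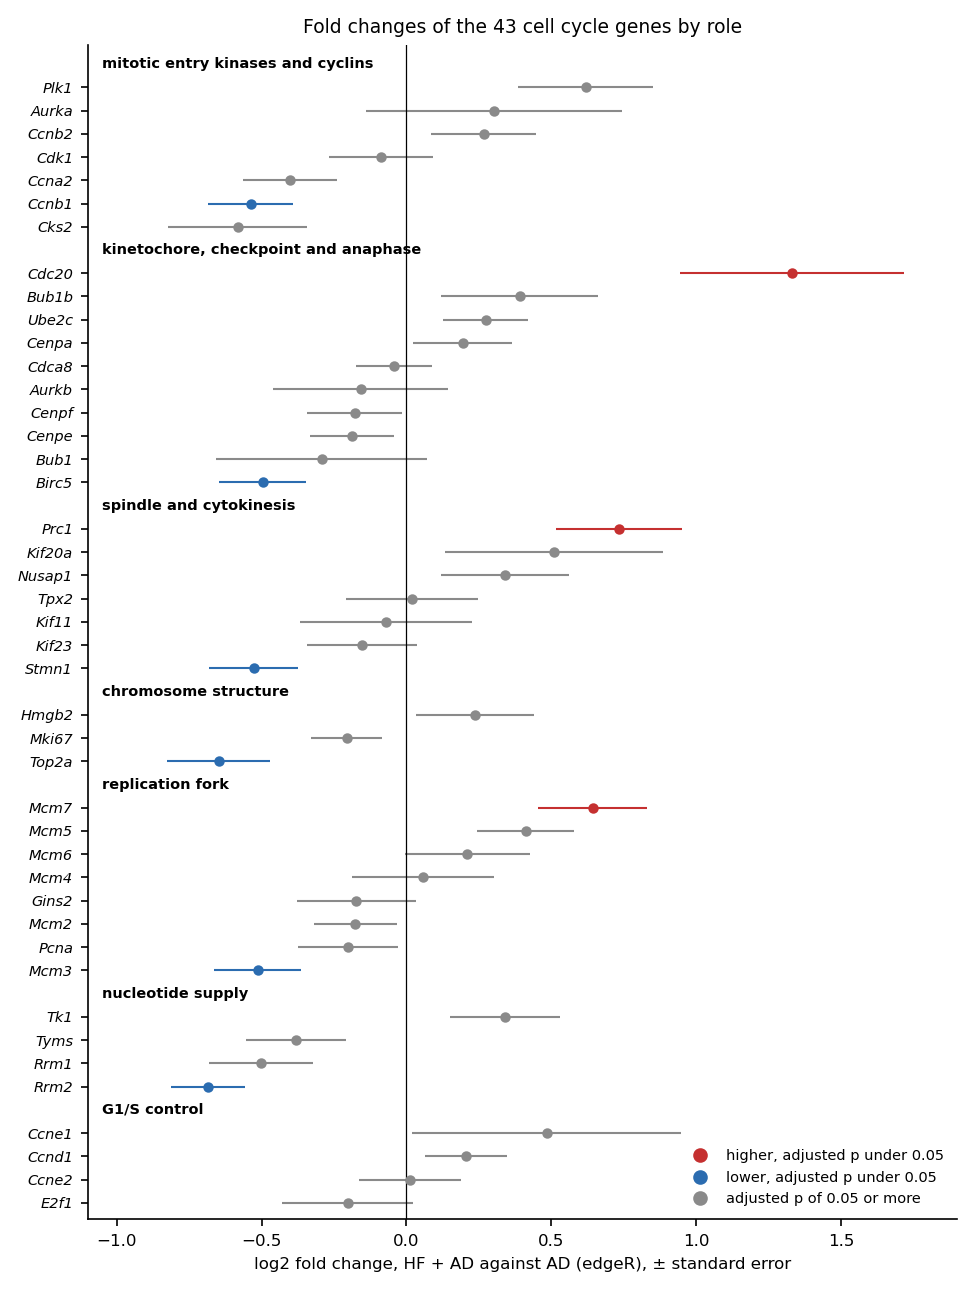
The log2 fold change of each of the 43 genes, HF + AD (7 mice) against AD (5 mice), is plotted on the x axis with its standard error, by role. Red points are the 3 genes higher and blue points the 6 genes lower at an adjusted p under 0.05, and grey points are the 34 others. All 7 roles hold genes on both sides of 0.

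**Figure D2:**
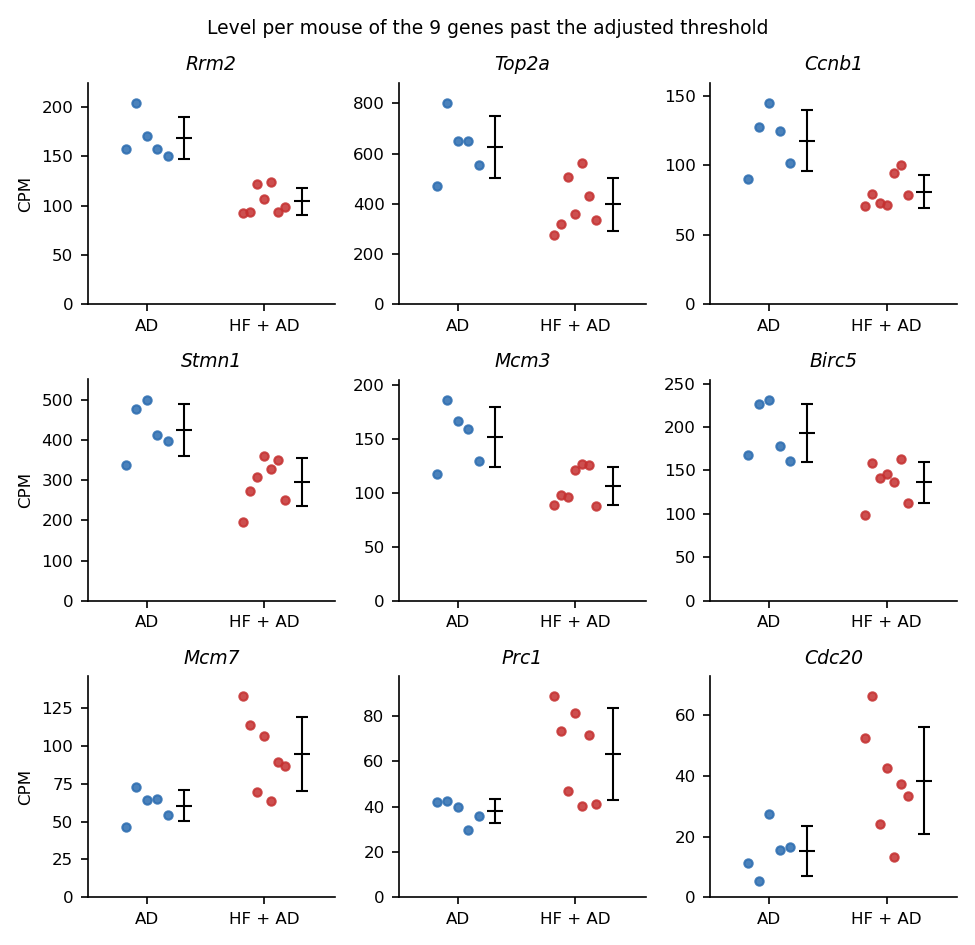
CPM in each mouse (points) with the mean and SD of each group (bars) for the 9 genes past the adjusted threshold, 5 AD and 7 HF + AD mice, each panel on its own scale from 0. The groups are apart without overlap for Rrm2 and overlap for the other 8 genes.

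Promoter sequence was given by RefSeq (GRCm38.p6) for 34 of the 43 genes, over 250 bases before to 50 bases after the start. It was not given for Ccna2, Aurkb, Kif20a, Tpx2, Stmn1, Mcm4, Gins2, Ccnd1 and Ccne2. The 5 windows shown are those of genes that passed the test, whose window holds a motif and whose RefSeq start lies within 13 bases of the GENCODE start. They run from 150 bases before to 20 after the start, 5′ to 3′ on the strand of the gene, with CCAAT and CHR motifs in capitals (CCAAT for the first, and TTTGAA as well as its variant TTCGAA for the second, searched on both strands, and without overlap between the motifs).
Rrm2 (lower; chr12:24708104-24708273, plus strand): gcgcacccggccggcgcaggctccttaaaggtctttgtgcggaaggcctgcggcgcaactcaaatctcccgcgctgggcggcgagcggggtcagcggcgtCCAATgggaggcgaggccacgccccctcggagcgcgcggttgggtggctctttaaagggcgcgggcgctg
Top2a (lower; chr11:99024170-99024339, minus strand): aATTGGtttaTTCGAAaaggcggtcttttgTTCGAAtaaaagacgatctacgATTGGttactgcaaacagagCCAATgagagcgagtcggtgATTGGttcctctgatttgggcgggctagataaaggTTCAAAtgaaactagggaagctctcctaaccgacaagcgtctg
Mcm3 (lower; chr1:20820293-20820462, minus strand): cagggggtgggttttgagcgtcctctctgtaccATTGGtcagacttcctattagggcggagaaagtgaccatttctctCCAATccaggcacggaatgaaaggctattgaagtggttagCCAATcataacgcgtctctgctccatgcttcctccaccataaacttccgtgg
Cdc20 (higher; chr4:118437324-118437493, minus strand): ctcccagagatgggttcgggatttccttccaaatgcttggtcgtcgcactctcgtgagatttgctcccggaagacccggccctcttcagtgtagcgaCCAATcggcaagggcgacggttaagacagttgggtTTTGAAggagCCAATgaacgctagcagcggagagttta
Prc1 (higher; chr7:80294301-80294470, plus strand): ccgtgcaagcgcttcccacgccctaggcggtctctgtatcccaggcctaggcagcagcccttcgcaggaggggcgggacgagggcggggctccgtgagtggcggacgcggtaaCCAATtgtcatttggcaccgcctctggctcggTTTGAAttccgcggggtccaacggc
Since a motif was a condition for showing a window, nothing is read from its presence in these 5. Of the other genes that passed, Birc5 has neither CCAAT nor CHR in its window, and its RefSeq start lies 82 bases from the GENCODE start. Ccnb1 holds CCAAT and Mcm7 holds CCAAT and CHR in the whole window. They are not shown because their RefSeq starts lie 84 and 539 bases from the GENCODE start. The limit of 13 bases is the distance of Rrm2 itself. Over the whole windows, CCAAT was in 28 of the 34 (82.4%), against 38.5% of 16519 promoters, and CHR in 19 (55.9%), against 17.1%. An E2F motif, searched as TTCCCGC or TTTGGCG on both strands, was in 5 (14.7%), against 7.88%. Within the 100 bases before the start the shares were 73.5% against 21.3% for CCAAT, 23.5% against 4.82% for CHR and 5.88% against 2.95% for E2F. These are matches of letters in a window and not measured binding sites.

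Among the genes of mitotic entry, Ccnb1 was lower in the HF + AD group and the other 6 did not pass. Ccnb1 (chromosome 13, 100778650 to 100786570 on the minus strand) encodes cyclin B1, the partner of CDK1 that drives entry into mitosis. Its level was 90.1, 128, 145, 125 and 102 CPM in the AD mice, and 70.7 at the lowest, 78.7 at the median and 101 at the highest in the HF + AD mice. AD mouse 1 lay among the upper HF + AD mice, and 5 of the 7 HF + AD mice lay below every AD mouse. edgeR gave -0.54 on the log2 scale (standard error 0.15) with adjusted p = 0.0314, and an exact permutation test (two-sided) of this gene gave p = 0.00631. This call ended without any one of AD mice 2, 3 and 4 and HF + AD mice 1, 2, 3, 4 and 7, with an adjusted p of 0.0522 to 0.0778.

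Its kinase partner Cdk1 did not pass, with 79.6 ± 20.1 CPM (SD, n = 5) in AD mice and 74.9 ± 15.5 (SD, n = 7) in HF + AD mice. The log2 fold change of Cdk1 was -0.09 (adjusted p = 0.813 from edgeR), and it was above 0 without AD mouse 2 or AD mouse 3, at up to 0.02. Ccna2 (cyclin A2, which acts in S phase and G2) had 154 ± 31.0 CPM (SD, n = 5) and 116 ± 23.1 (SD, n = 7), a log2 fold change of -0.40 with an adjusted p of 0.130 from edgeR. Its unadjusted p was 0.0244 from edgeR. The two-sided exact permutation test of Ccna2 gave p = 0.0391, which rose to 0.0795 with library totals and 0.0939 without AD mouse 2. Cks2, a small subunit of the CDK complexes, and Plk1, the Polo kinase, also had an unadjusted p under 0.05 only, with log2 fold changes of -0.58 and 0.62 (adjusted p = 0.136 and 0.103 from edgeR). Cks2 passed without AD mouse 5 (adjusted p = 0.0401 from edgeR), and 180 of the 451 stretches of 50 bases at its 3′ end also occur in the pseudogene Gm15452, so its count is uncertain. Ccnb2 (cyclin B2) and Aurka (Aurora A, which matures centrosomes) had log2 fold changes of 0.27 and 0.30, with adjusted p of 0.394 and 0.725 from edgeR. The 3 cyclins of this group had 2 values below 0 and 1 above, and only cyclin B1 passed.

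In the kinetochore, checkpoint and anaphase group, Cdc20 was higher and Birc5 lower in the HF + AD group. Cdc20 (chromosome 4, 118432901 to 118437352 on the minus strand) encodes the activator of the anaphase-promoting complex. Its level was 11.4, 5.28, 27.5, 15.7 and 16.7 CPM in the AD mice and 13.4, 37.5 and 66.4 at the lowest, median and highest of the HF + AD mice. Of the HF + AD mice, 5 lay above every AD mouse, whereas HF + AD mice 3 and 5 lay within the AD range. Its fold change was the largest of the 43, 1.33 on the log2 scale, and edgeR gave a standard error of 0.39 and an adjusted p of 0.0401 (two-sided exact permutation test, p = 0.0177). No call was made without any one of AD mice 1, 2, 4 and 5 and HF + AD mice 1, 2, 4, 6 and 7, with an adjusted p of 0.0572 to 0.0967, and the permutation p was 0.0515 without AD mouse 2. The 3′ end of Cdc20 overlaps by 53 bases that of Elovl1, a fatty acid elongase gene on the other strand, which was itself higher (98.6 ± 25.5 CPM in the AD group, n = 5, and 161 ± 41.5 in the HF + AD group, n = 7; log2 fold change 0.70, adjusted p = 0.0343 from edgeR). The Elovl1 call was lost with 8 of the 12 mice left out singly (AD mice 2 to 5 and HF + AD mice 1, 2, 4 and 7), at an adjusted p of 0.0539 to 0.0818, and under a correction of each library for the GC content of whole transcripts. Whether reads were assigned by strand is not given in the sources used here, and the part of Elovl1 in the Cdc20 count was not tested.

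Birc5 (chromosome 11, 117849251 to 117855743 on the plus strand) encodes survivin, a subunit of the chromosomal passenger complex that corrects the attachment of chromosomes to the spindle. Its level was 167, 226, 232, 178 and 161 CPM in the AD mice and 98.3, 141 and 163 at the lowest, median and highest of the HF + AD mice. The groups touched only at AD mouse 5 and HF + AD mouse 6, and 6 of the 7 HF + AD mice lay below every AD mouse. By edgeR the log2 fold change came to -0.50 with a standard error of 0.15 and an adjusted p of 0.0464, and the two-sided exact permutation test on log2(CPM + 1) gave p = 0.00379. Omission of any one of AD mice 2, 3 and 4 and HF + AD mice 1, 2, 3, 4, 5 and 7 ended the call, with an adjusted p of 0.0576 to 0.110.

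The other subunits of the same complex among the 43 did not pass, with log2 fold changes of -0.16 for the kinase Aurkb (adjusted p = 0.797 from edgeR) and -0.04 for Cdca8, borealin (adjusted p = 0.875). Aurkb was at 0.02 without AD mouse 4, and Cdca8 lay between 0.00075 and 0.05 in 5 alternatives, among them those leaving out AD mouse 2 or HF + AD mouse 7. The scaffold of the complex, Incenp, stands outside the 43 and was lower, from 118 ± 13.8 CPM (SD, n = 5) to 67.9 ± 10.8 (SD, n = 7), and edgeR gave a log2 fold change of -0.80 with an adjusted p of 0.00616 and no overlap between the groups. The centromere histone Cenpa and the kinetochore proteins Cenpe and Cenpf had log2 fold changes of 0.19, -0.19 and -0.18, and the checkpoint kinases Bub1 and Bub1b had -0.29 and 0.39, none of which passed. Ube2c, the ubiquitin-conjugating enzyme of the anaphase-promoting complex, had 87.3 ± 16.9 CPM (SD, n = 5) and 106 ± 13.3 (SD, n = 7), a log2 fold change of 0.27 with an adjusted p of 0.264 from edgeR.

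In the spindle and cytokinesis group, Prc1 was higher and Stmn1 lower in the HF + AD group. Prc1 (chromosome 7, 80294450 to 80316259 on the plus strand) encodes a protein that bundles the microtubules of the central spindle. Its level was 42.2, 42.3, 39.8, 29.9 and 36.0 CPM in the AD mice and 40.3, 71.4 and 88.7 at the lowest, median and highest of the HF + AD mice. Of the HF + AD mice, 4 had 71.4 CPM or more and 3 had 46.8 CPM or less, of which HF + AD mice 5 and 7 lay within the AD range. edgeR gave 0.73 on the log2 scale (standard error 0.22) with adjusted p = 0.0433, and an exact permutation test (two-sided) of this gene gave p = 0.0189. The threshold was missed without any one of AD mice 2, 3, 4 and 5 and HF + AD mice 1, 2, 4 and 6, with an adjusted p of 0.0632 to 0.0979, and the permutation p was 0.0606 without AD mouse 4. Prc1 lies wholly within the span of Rccd1, a gene on the other strand that was too low to be tested.

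Stmn1 (chromosome 4, 134468320 to 134473843 on the plus strand) encodes stathmin, which takes microtubules apart. Its level was 338, 478, 500, 413 and 397 CPM in the AD mice and 197, 307 and 360.2 at the lowest, median and highest of the HF + AD mice. AD mouse 1 lay among the HF + AD mice, and 5 of the 7 HF + AD mice lay below every AD mouse. By edgeR the log2 fold change came to -0.53 with a standard error of 0.15 and an adjusted p of 0.0401, and the two-sided exact permutation test on log2(CPM + 1) gave p = 0.00884. This call ended without any one of AD mice 2, 3, 4 and 5 and HF + AD mice 1, 2, 3 and 7, with an adjusted p of 0.0522 to 0.0917.

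The 5 other genes of the spindle did not pass. Kif23, a motor of the central spindle, had 78.5 ± 20.8 CPM (SD, n = 5) and 70.6 ± 15.3 (SD, n = 7), with a log2 fold change of -0.15. Kif20a, another motor of cytokinesis, and Nusap1, a microtubule-binding protein, had 0.51 and 0.34. Kif11, the motor that separates the spindle poles, and Tpx2, which targets Aurora A to the spindle, had -0.07 and 0.02, and both changed sign in some alternatives, Kif11 to as high as 0.20 (without AD mouse 2) and Tpx2 to as low as -0.19 (without AD mice 1 and 2).

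Of the 3 genes of chromosome structure, Top2a was lower in the HF + AD group. Top2a (chromosome 11, 98992943 to 99024189 on the minus strand) encodes topoisomerase II alpha, which untangles sister chromosomes. Its level was 473, 801, 651, 649 and 555 CPM in the AD mice and 275, 360.3 and 564 at the lowest, median and highest of the HF + AD mice. AD mouse 1 was the lowest of its group, HF + AD mice 3 and 5 lay within the AD range and the other 5 lay below every AD mouse. edgeR gave -0.65 on the log2 scale (standard error 0.18) with adjusted p = 0.0316, and an exact permutation test (two-sided) of this gene gave p = 0.0114. No call was made without any one of AD mice 2, 3 and 4 and HF + AD mice 1, 2, 4 and 7, with an adjusted p of 0.0602 to 0.0887.

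Mki67, the Ki-67 antigen that coats mitotic chromosomes and is a usual mark of dividing cells, had 116, 144, 141, 154 and 145 CPM in the AD mice and 98.3, 125 and 133 at the lowest, median and highest of the HF + AD mice. AD mice 2 to 5 lay above every HF + AD mouse and AD mouse 1 lay among them. At -0.21 on the log2 scale (standard error 0.12), the difference did not pass across all genes (adjusted p = 0.313 from edgeR). Taken alone it had p = 0.0492 (two-sided exact permutation test), which rose to 0.0584 to 0.115 without any one of AD mice 2 to 5 and HF + AD mice 1, 3, 6 and 7, and to 0.141 with library totals. Hmgb2, a chromatin protein that bends DNA, had a log2 fold change of 0.24 (adjusted p = 0.513 from edgeR).

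At the replication fork, Mcm3 was lower and Mcm7 higher in the HF + AD group, although both encode subunits of the same ring of 6 MCM proteins. Mcm3 (chromosome 1, 20802968 to 20820312 on the minus strand) was at 118, 187, 167, 159 and 130.2 CPM in the AD mice and at 87.7, 97.9 and 127 at the lowest, median and highest of the HF + AD mice. AD mouse 1 lay among the upper HF + AD mice, and 4 HF + AD mice lay below every AD mouse. By edgeR the log2 fold change came to -0.51 with a standard error of 0.15 and an adjusted p of 0.0402, and the two-sided exact permutation test on log2(CPM + 1) gave p = 0.0152. Omission of any one of AD mice 2, 3 and 4 and HF + AD mice 1, 2, 3, 4 and 7 ended the call, with an adjusted p of 0.0518 to 0.105.

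Mcm7 (chromosome 5, 138164583 to 138172422 on the minus strand) was at 46.7, 72.4, 64.2, 65.1 and 54.1 CPM in the AD mice and at 63.6, 88.9 and 133 at the lowest, median and highest of the HF + AD mice. HF + AD mice 3 and 5 lay within the AD range and the other 5 lay above every AD mouse. edgeR gave 0.64 on the log2 scale (standard error 0.19) with adjusted p = 0.0404, and an exact permutation test (two-sided) of this gene gave p = 0.0164. The threshold was missed without any one of AD mice 1, 3, 4 and 5 and HF + AD mice 1, 2, 4, 6 and 7, with an adjusted p of 0.0566 to 0.0924. The 3′ end of Mcm7 overlaps by 64 bases that of Cops6 on the other strand (44.4 ± 22.6 and 53.4 ± 10.95 CPM, log2 fold change 0.27, adjusted p = 0.547 from edgeR), and 103 of its 451 stretches of 50 bases there also occur in the pseudogene Gm5487, so its count is uncertain. Cops6 passed without AD mouse 1, with a log2 fold change of 0.63.

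The MCM genes were also compared as a share of their summed counts, a comparison made after their values were seen. Mcm7 made up 9.94 to 13.7% of the counts of Mcm2 to Mcm7 in the AD mice and 14.3 to 23.9% in the HF + AD mice, and the ranges did not overlap. Mcm3 made up 25.1 to 34.6% and 16.1 to 28.5%, with an overlap. The shares of Mcm2, Mcm4, Mcm5 and Mcm6 overlapped as well. These are shares of reads near the 3′ ends, and no share speaks of the protein ring. They come from the same counts as the calls of Mcm3 and Mcm7, and a lower Mcm3 alone raises the share of Mcm7. The shares are therefore no separate support for either call, and they have no background beside them. In CPM, Mcm7 overlapped between the groups.

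**Figure D3:**
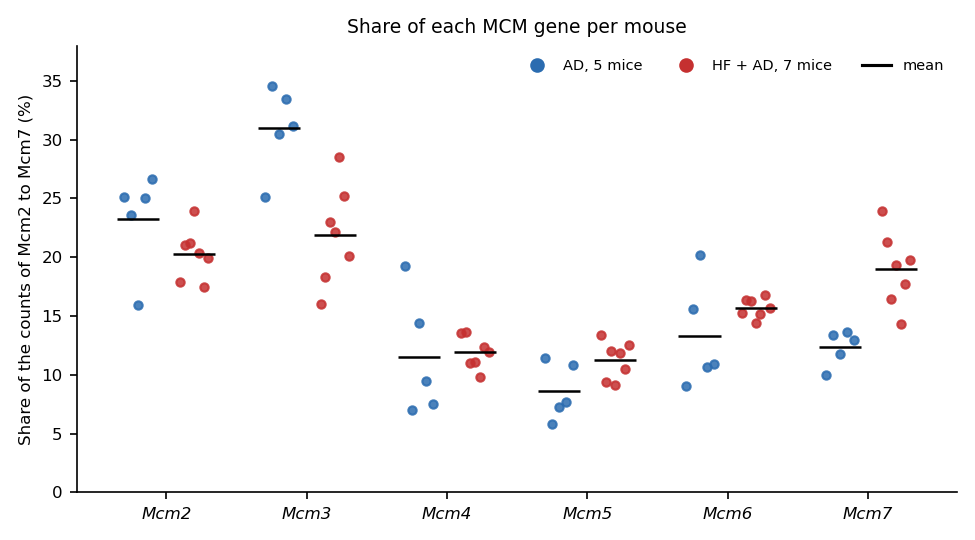
Share of each MCM gene in the summed counts of Mcm2 to Mcm7 (y axis, percent) in each of 5 AD (blue) and 7 HF + AD (red) mice, with group means as lines. The 2 groups are apart for Mcm7 (12.3 against 19.0% on average) and overlap for the other 5 genes. The shares come from the same counts as the calls of Mcm3 and Mcm7 and are no separate support for them.

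The other fork genes did not pass. Mcm5 had an unadjusted p of 0.0249, and edgeR gave a log2 fold change of 0.41 with an adjusted p of 0.131. Mcm2, Mcm4 and Mcm6 had log2 fold changes of -0.18, 0.06 and 0.21. Mcm2 was at 113 ± 15.3 CPM (SD, n = 5) in AD mice and 99.8 ± 16.8 (SD, n = 7) in HF + AD mice. Mcm4 was below 0 without any one of AD mice 2, 4 and 5 and HF + AD mice 1 and 2, at -0.08 to -0.0033. Pcna, the sliding clamp, was at 104 ± 29.8 CPM (SD, n = 5) and 90.6 ± 11.2 (SD, n = 7), with a log2 fold change of -0.20, and Gins2, a part of the active helicase, at 117 ± 46.4 and 104 ± 11.1 CPM, with -0.17. The SD of Pcna and Gins2 in the AD group was the larger of the 2 groups.

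Nucleotide supply held the gene with the smallest p of the 43, Rrm2. Rrm2 (chromosome 12, 24708241 to 24714146 on the plus strand) encodes the small subunit of ribonucleotide reductase, which is made in S phase and limits the supply of deoxynucleotides. Its level was 158, 204, 170.3, 158 and 150.4 CPM in the AD mice and 92.6, 98.1 and 124 at the lowest, median and highest of the HF + AD mice. Every HF + AD mouse lay below every AD mouse, which was so for Rrm2 alone of the 43 genes (2.33%, where 5.45% of all genes tested did not overlap, 2.89% higher and 2.56% lower). edgeR gave a log2 fold change for Rrm2 of -0.69, with 0.13 as standard error and 0.00679 as adjusted p, and the two-sided exact permutation test gave 0.00126, the smallest p that 792 splits of the mice allow. It passed without any 1 of the 12 mice, with an adjusted p of 0.00508 to 0.0227.

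Rrm1, the large subunit of the same enzyme, was at 209, 227, 149, 227 and 195 CPM in the AD mice and 101, 139 and 207 at the lowest, median and highest of the HF + AD mice. AD mouse 3 was the lowest of its group, and 5 HF + AD mice lay below it. For Rrm1 edgeR gave -0.50 on the log2 scale with an adjusted p of 0.0878 (standard error 0.18), and the two-sided exact permutation test gave p = 0.0253. The permutation p rose to 0.0515, 0.0606 and 0.0606 without AD mice 1, 2 and 4. Rrm1 passed across all genes without HF + AD mouse 5 (adjusted p = 0.0278 from edgeR). It also passed with all 12 mice under the Wald test of DESeq2 (adjusted p = 0.04935), but under no other alternative that kept them. Tyms, thymidylate synthase, had a log2 fold change of -0.38 with an unadjusted p of 0.0417 (adjusted p = 0.178 from edgeR), and Tk1, the thymidine kinase of the salvage route, had 0.34 (adjusted p = 0.286). The median log2 fold change of these 4 genes, -0.44, was the lowest of the 7 roles. Summed over the 4, the level was 456 to 523 CPM in the AD mice and 310 to 458 CPM in the HF + AD mice.

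No gene of G1/S control passed, and none had an unadjusted p under 0.05. Ccnd1 (cyclin D1, which links growth signals to the cycle) was at 286 to 373 CPM in the AD mice and 308 to 505 in the HF + AD mice, and edgeR gave a log2 fold change of 0.21 with an adjusted p of 0.395. Ccne2 (cyclin E2) was at 47.4 ± 11.9 CPM (SD, n = 5) and 47.8 ± 5.87 (SD, n = 7), with a log2 fold change of 0.01 that lay below 0, at -0.11 to -0.0025, without any one of AD mice 1 and 3 and HF + AD mice 1 and 4. E2f1, a factor that drives S phase genes, was at 21.6 ± 4.74 CPM and 18.8 ± 4.14, with -0.20. Ccne1 (cyclin E1) was at 0.725, 9.62, 9.69, 14.5 and 8.59 CPM in the AD mice and at 8.49, 10.8 and 17.5 at the lowest, median and highest of the HF + AD mice, which edgeR put at 0.48 on the log2 scale with an adjusted p of 0.567 (standard error 0.46). Only AD mouse 1 stood apart for Ccne1, at 8 counts.

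The place and the base composition of the 43 genes are given here as description. Of the 43 genes, 10 have an annotated gene on the other strand over the last 500 bases of their transcript, where the reads of this 3′ method fall. All 3 genes that rose were among these 10 and none of the 6 that fell, with a median log2 fold change of 0.31 for the 10 and -0.16 for the other 33. How many of all genes tested have such a neighbour was not counted, so this split has no background beside it. The part of the neighbours in the counts of the 10 was not tested. The GC content of the longest coding transcript was 55.6% for Cdc20, 53.4% for Mcm7 and 45.7% for Prc1, and 43.4 to 52.5% for the 6 genes that fell. Over the 43 genes, the log2 fold change and GC content had a Pearson correlation of 0.335 (Spearman 0.36), and over the last 500 bases 0.395 (Spearman 0.40), where the genes share their libraries. Over all genes with a transcript (n = 14055) the Pearson correlation was 0.123 (Spearman 0.163), and over the last 500 bases 0.135 (Spearman 0.169). Among all genes, 72 were higher and 213 lower in the fifth of lowest GC content, and 195 were higher and 60 lower in the fifth of highest. After a GC correction of each library, a step added after seeing the data, 1 of the 3 higher genes passed with whole transcripts (Prc1, adjusted p = 0.0450 from edgeR) and none with the last 500 bases. The log2 fold changes under the 2 corrections were 0.72 and 0.66 for Prc1, 1.14 and 1.099 for Cdc20 and 0.48 and 0.48 for Mcm7, against 0.73, 1.33 and 0.64 without. The 6 lower genes passed under both corrections. The higher genes were 35.1 and 35.5% of all genes called under these corrections, against 48.1% without.

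**Figure D4:**
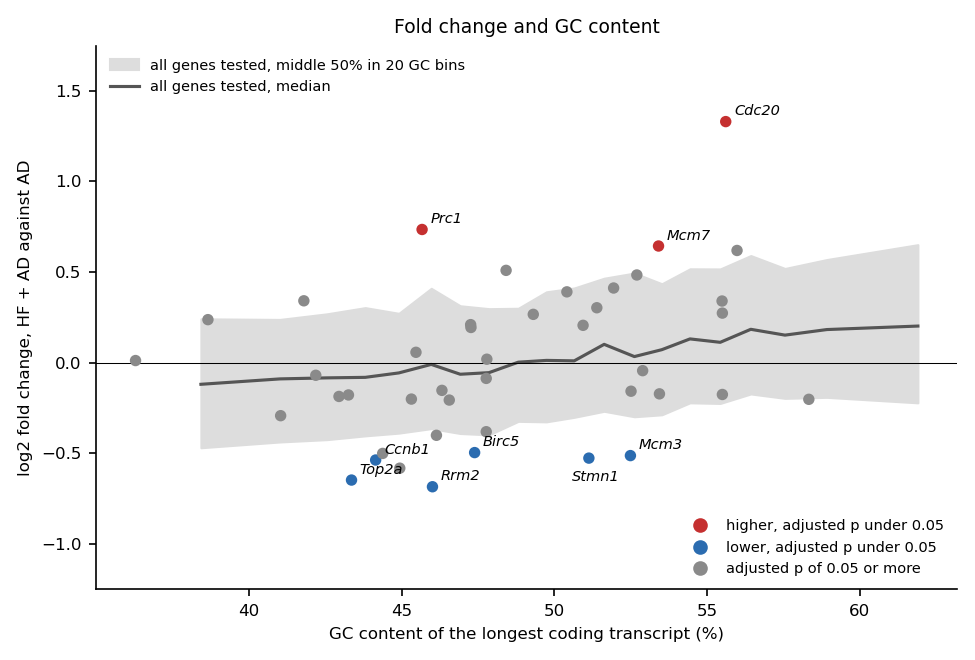
Log2 fold change of the 43 genes (points, y axis) against the GC content of their longest coding transcript (x axis, percent), coloured by call, with the median (line) and the middle 50% (grey band) of all genes tested in 20 GC bins. The median of all genes climbs with GC content, and Cdc20, Prc1 and Mcm7, the 3 genes that rose, lie above the band.

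Other genes of the cell cycle, from lists written down with the members, are given next. Of 45 further replication genes tested, none was higher and 5 were lower at the adjusted threshold, and 3 were higher and 11 lower at an unadjusted p under 0.05 (background 12.3 and 12.8%). These are 11.1 and 31.1% of the 45, against 9.2 and 25.1% of all genes tested, and their median was -0.17. The 5 were Prim1, the catalytic subunit of primase (67.0 ± 13.8 and 35.4 ± 8.13 CPM, log2 fold change -0.92, adjusted p = 0.00923 from edgeR), Dut, the dUTPase that keeps uracil out of DNA (181 ± 51.2 and 92.2 ± 22.1 CPM, -0.97, adjusted p = 0.00833), Rpa2, a subunit of the single-strand binding protein (-0.88, adjusted p = 0.0175), Tipin of the fork protection complex (-0.80, adjusted p = 0.0168) and Chaf1b of the chromatin assembly factor (-0.96, adjusted p = 0.0301). Prim1, Dut and Gins1, which did not pass (log2 fold change -0.78, adjusted p = 0.0512 from edgeR), did not overlap between the groups. These are 3 of the 45, all lower, where 5.45% of all genes tested did not overlap (2.56% lower). Prim1, Dut and Rpa2 passed whichever mouse was left out, Tipin did except without AD mouse 2 (adjusted p = 0.0511 from edgeR), and Chaf1b was lost without any one of AD mice 4 and 5 and HF + AD mice 1, 2, 4 and 7 (0.0576 to 0.1002).

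Of 42 further genes of mitosis tested, none was higher and 3 were lower at the adjusted threshold, with 4 higher and 8 lower at an unadjusted p under 0.05 and a median of -0.22. At 7.14 and 28.6%, these shares are below and near the 9.2 and 25.1% of all genes tested. The 3 were Incenp, given above, Sgol1, which protects the cohesion of centromeres (56.2 ± 15.01 and 31.3 ± 7.07 CPM, -0.84, adjusted p = 0.0200 from edgeR), and Mad2l1 of the spindle checkpoint (57.5 ± 15.1 and 34.7 ± 8.23 CPM, -0.73, adjusted p = 0.0369). Incenp passed whichever mouse was left out and Sgol1 except without AD mouse 3 (adjusted p = 0.0501 from edgeR), whereas Mad2l1 was lost without any one of AD mice 1 to 3 and HF + AD mice 1, 2, 3, 4 and 6 (0.0515 to 0.0795) and under the GC correction with whole transcripts. MAD2 protein holds CDC20 in check. The RNA values of Mad2l1 and Cdc20 had opposite signs, and a link between them was not tested.

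Of 17 further G1/S genes, 2 were higher and 1 lower (17.6% of them, against 9.2% of all genes tested), with a median of 0.057. Ccnd2 and Ccnd3, the other D cyclins, were higher, Ccnd2 from 443 ± 159 to 775 ± 224 CPM (log2 fold change 0.81, adjusted p = 0.0480 from edgeR) and Ccnd3 from 43.4 ± 3.95 to 64.5 ± 14.2 CPM (0.57, adjusted p = 0.0406). Cdk2, the partner of the E cyclins, was lower, from 104 ± 38.2 to 57.6 ± 12.4 CPM (-0.85, adjusted p = 0.0323 from edgeR). All 3 D cyclins had log2 fold changes above 0, of which those of Ccnd2 and Ccnd3 passed. Ccnd2 was lost without any one of AD mice 1 to 4 and HF + AD mice 1, 2, 4, 6 and 7 (adjusted p = 0.0501 to 0.101 from edgeR), Ccnd3 without any one of AD mice 1 to 4 and HF + AD mice 1, 2, 4 and 6 (0.0596 to 0.0923) and under both GC corrections, and Cdk2 without any one of AD mice 2, 4 and 5 and HF + AD mice 1, 2, 4 and 7 (0.0562 to 0.0864). Of 18 CDK inhibitors and pocket proteins, none was higher and 3 were lower (16.7% of them, against 9.2% of all genes tested), with a median of -0.055. The 3 were the inhibitors Cdkn2b (-1.02, adjusted p = 0.0159 from edgeR) and Cdkn2d (-0.73, adjusted p = 0.0450) and the pocket protein Rbl1 (-0.89, adjusted p = 0.0377). Cdkn2b passed whichever mouse was left out. In the lists other than replication, the groups did not overlap for Incenp, Sgol1, Cdkn2b and Cdkn2d, all lower, and for Ccnd3, higher (background 2.56% lower and 2.89% higher). Cdkn2d passed only without AD mouse 4 or HF + AD mouse 5 (otherwise adjusted p = 0.0527 to 0.119 from edgeR), and Rbl1 was lost without any one of AD mice 2 and 3 and HF + AD mice 1, 2, 4, 6 and 7 (0.0562 to 0.106).

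Markers of the dividing and non-dividing cells of skin moved as well, and their part in the values of the 43 genes was not tested. Of all genes tested, 4.43% were higher and 4.77% lower at the adjusted threshold used for the counts below. Basal keratinocyte markers had 3 of 7 higher and none lower (Krt5, Krt14 and Krt15, of which Krt14 was lost without any one of AD mice 2 to 4 and under both GC corrections, at an adjusted p of up to 0.0736 from edgeR, and Krt15 with limma's quality weights and without AD mice 1 and 2), with a summed level of 3666 to 5380 CPM in the AD group and 6314 to 10990 CPM in the HF + AD group, without overlap. Krt5 and Krt14 had the highest levels of the 7 (4118 and 1236 CPM on average over the 12 mice), and Col17a1, Itga6, Itgb4 and Trp63 did not pass, with log2 fold changes of 0.0010, 0.14, 0.39 and -0.29. Markers of the hair shaft had 3 of 9 higher (2574 to 5271 and 3974 to 6576 CPM), of the inner root sheath 2 of 6 (6745 to 11230 and 8232 to 11710 CPM) and of the hair follicle matrix 1 of 6 (523 to 1026 and 787 to 1129 CPM). Markers of hyperproliferative epidermis had 0 of 7 in either direction (7180 to 24190 and 7189 to 18440 CPM). Endothelium had 2 of 6 higher (22.9 to 66.3 and 33.6 to 82.1 CPM), sebocytes 1 of 6 tested lower (2045 to 3492 and 1498 to 2616 CPM) and skeletal muscle 1 of 6 lower (843 to 2060 and 568.1 to 1355 CPM). Suprabasal keratinocytes, T cells, macrophages and dendritic cells, mast cells, dermal fibroblasts and adipocytes had none. No marker was at 0 in all libraries. The summed level of the 43 genes was 3679 to 4710 CPM in the AD group and 3153 to 4067 CPM in the HF + AD group.

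The calls of the 8 genes other than Rrm2 were lost when some single mice were left out, as the ranges above show. Left out 1 at a time, the 12 mice gave between 1 and 9 passing genes among the 43, and 7 of the 12 left 1 or 2. The directions of all 9 genes stayed the same under every alternative run. Without AD mice 1 and 2, which had the most reads per molecule, Rrm2 and Ccnb1 passed (adjusted p = 0.0299 and 0.0389 from edgeR) and the other 7 did not. The SD over mice of the log2 level was larger in the AD group for 27 of the 43 genes (62.8%), against 75.7% of 9811 genes of the same abundance.

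**Figure D5:**
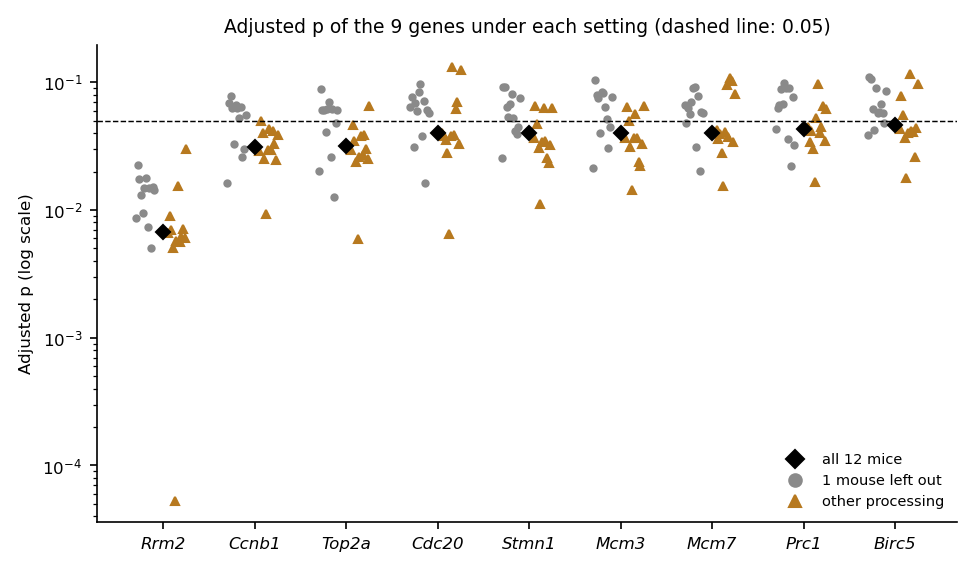
Adjusted p (y axis, log scale) of the 9 genes with all 12 mice (black), with each mouse left out (grey) and under 12 other ways of processing (brown), with 0.05 as the dashed line. Rrm2 stays under the line in all that are drawn, but not with the replicate number as a term, a fit not drawn here (adjusted p = 0.0697 from edgeR, with none of the 9 genes passing), and each of the other 8 crosses it when some mice are left out.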

How the data were processed

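The deposited files hold, for each mouse, whole-number counts of reads per gene symbol, made by the authors from QuantSeq 3′ libraries. The submitters' processing notes name Bowtie2, bedtools and mm10. The annotation, the handling of duplicate reads and the use of strand are not given in the sources used here. The kit reads near 3′ ends, so the counts depend on the annotated 3′ end.

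Counts of 5 AD and 7 HF + AD libraries were filtered with filterByExpr, scaled by TMM and tested with edgeR 4.0.16 in R 4.3.3 (quasi-likelihood test, Benjamini-Hochberg adjustment over 14163 genes, threshold 0.05). The procedure was tried on simulated counts with the same dispersion for all genes and no difference in reads per molecule between the groups. That trial therefore does not cover the library differences of these data. For single genes, all 792 splits of the mice gave an exact two-sided permutation p on log2(CPM + 1). A count of 3 corresponds to 0.223 to 0.308 CPM. Reads per molecule came from how many genes expected at 10 to 200 counts were at 0, and rest on counting error only. The labels number the samples of each group and the methods speak of mice. The p-values set the difference between the groups against the spread between these samples.

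The 43 members, their roles and all other lists were chosen with earlier results of these data known. Genes described by name were those past the adjusted threshold, the 2 of highest CPM in each role, 8 textbook marks and the extremes of fold change, and of the other lists those past the threshold. Positions and transcripts are from GENCODE M21 (GRCm38) and promoters from RefSeq. Alternatives were DESeq2 1.42.0 (size factors and Wald test), library totals, other filters, limma 3.58.1 (trend and quality weights), a robust dispersion prior, the replicate block, each mouse left out and, chosen after seeing the data, GC correction in 20 bins, division by reads per molecule and omission of 2 AD libraries.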

Additional observations from a re-analysis of the deposited data

Results flagged for a closer look

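In 5 of 86 groups of values (43 genes in 2 groups of mice), the highest or lowest mouse lay far from the other mice of its group, on log2(CPM + 1), where chance gives about 1 in 20, or 4.3. Plk1 in AD mouse 2 was at 6.34, above the 5.60 to 5.73 of the other AD mice. Cenpf in AD mouse 1 was at 6.05, below 6.56 to 6.74. Ccne1 in AD mouse 1 was at 0.787, below 3.26 to 3.95. Kif11 in HF + AD mouse 6 was at 4.82, above 3.95 to 4.29, and Mcm5 in HF + AD mouse 1 was at 6.23, above 5.68 to 5.80. AD mice 1 and 2 hold 3 of the 5 values, and their libraries had the most reads per molecule (32.2 and 29.2). A part of reads per molecule in these values was not tested, and their number is near that given by chance.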

How the results depend on the processing

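The number of the 43 genes that passed, 9, became 5 with library totals, 3 with limma's quality weights and 2 without the pair of AD libraries of most reads per molecule, and lay between 1 (for AD mouse 4 and for the first and second HF + AD mice) and 9 (without HF + AD mouse 5) with 1 mouse left out. It lay between 6 and 10 under the other alternatives, the replicate block apart. All genes that passed, 1303, became 766 with quality weights and 639 (without HF + AD mouse 2) to 1461 (without HF + AD mouse 5) with 1 mouse left out. With the replicate block, the replicate number as a term, 192 of all genes and 0 of the 43 passed (14 of the 43 at an unadjusted p under 0.05), and Rrm2 had an adjusted p of 0.0697 from edgeR. Numbers 6 and 7 occur in the HF + AD group only, so those mice add nothing to the group difference in that fit. It also estimates more terms from the same 12 mice, so it has less power than the main fit. The deviations of same-numbered mice had correlations of 0.0668, -0.0293, -0.106, 0.0724 and 0.0392. What the number stands for is not given in the labels, and whether it marks a shared condition was not tested. The number at an unadjusted p under 0.05 stayed at 12 to 17 and the median log2 fold change at -0.12 to -0.0069 with 1 mouse left out. The cause of these changes was not tested.

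Among the named genes, signs changed only for those that did not pass. Of the 14 genes from the other cell cycle lists that passed, none changed sign in the alternatives other than the replicate block. Their values under the replicate block are not given here. The calls of Mad2l1, Ccnd2, Ccnd3, Cdkn2d and Rbl1 were lost with limma's quality weights, and those of these 5 and Cdkn2b without the pair of AD libraries. Those of Cdk2 and Rbl1 were lost with limma-trend, and that of Cdkn2d also with library totals, no filter and division by reads per molecule. They changed with library totals (Cdca8, 0.00075), limma-trend (Kif11, 0.054), quality weights (Cdk1, 0.030, Kif11, 0.11, Tpx2, -0.085, Ccne2, -0.036), the replicate block (Cdca8, 0.0055, Tpx2, -0.0084), GC correction of the last 500 bases (Tpx2, -0.091), division by reads per molecule (Kif11, 0.0016, Tpx2, -0.062) and without the pair of AD libraries (Cdca8, 0.051, Kif11, 0.19, Tpx2, -0.19, Ccne2, -0.0043). With 1 mouse left out they changed for Aurkb (range -0.34 to 0.017), Ccne2 (-0.11 to 0.13), Cdca8 (-0.082 to 0.011), Cdk1 (-0.19 to 0.024), Kif11 (-0.25 to 0.20), Mcm4 (-0.083 to 0.29) and Tpx2 (-0.11 to 0.22), and for the difference in mean log2(CPM + 1) of Ccne2 (-0.11 to 0.15), Cdk1 (-0.16 to 0.026) and Gins2 (-0.29 to 0.076). A count table made without known strand or duplicate handling, 1 time point and no untreated skin limit every value here.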
